A study of Homo sapiens with 12 samples.

Results

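The genes described here are the ZNF genes of human chromosome 19: every gene whose symbol is ZNF followed by digits only and whose locus lies on that chromosome. The rule found 248 gene identifiers with 243 symbols among the 57755 identifiers of the deposited tables. Of these, 148 reached 1 FPKM (fragments scaled to transcript length and to the library's mapped fragments) in at least 2 libraries and were tested; the other 100 were too low to test. The rule used no measured value.

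Polyadenylated RNA of KYSE510 and TE7 cells was sequenced, 12 libraries in all. Both are human lines labelled as esophageal squamous cell carcinoma. KYSE510 was grown in RPMI-1640 and TE7 in DMEM, so medium and line cannot be told apart. Each line gave 1 library for each of 6 conditions: DMSO, the solvent; THZ1, a covalent inhibitor of the transcriptional kinase CDK7 that also binds CDK12 and CDK13, at 50 nM, harvested after 2, 4, 6 and 12 h; and a higher THZ1 dose, 200 nM, harvested after 6 h. The DMSO libraries are titled 0 h but carry a time label of 12 h, and no DMSO library is labelled 2, 4 or 6 h, so hours of THZ1 cannot be told apart from time in culture. The lines served as the 2 replicates of a condition, so p-values measure the spread between these libraries and lines only. No label says that a line was cultured more than once for a condition.

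Most ZNF genes of chromosome 19 encode C2H2 zinc finger proteins, in which tandem fingers bind DNA. Many carry a KRAB domain, which recruits the scaffold TRIM28, the histone methyltransferase SETDB1 and HP1 proteins to silence the bound site, often a transposable element. The genes arose by tandem duplication and lie in clusters of near relatives along the chromosome. Fragments of near-identical paralogs may be split between genes by the counting, and 101 of the 148 tested loci overlap another gene while the strand used in counting is not stated, so the value of a single member can include reads of a relative or an overlapping gene.

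Promoters of 208 of the 243 symbols were found in the RefSeq promoter table (build GRCh38.p14). The 250 bases before the start are printed below for 8 members that the results turn on. ZNF146 and ZNF302 had large falls, ZNF580 and ZNF296 rose, ZNF611 and ZNF331 were on in the library labelled KYSE510 DMSO and off in that line at 50 nM, and ZNF134 and ZNF787 had the opposite pattern. Capitals mark any match, on either strand, to the 6 motifs searched. These were the CCAAT box, the TATA box as TATAAA, the core of GC boxes as GGGCGG, the core of ETS-factor sites as CGGAAG, the palindrome CTCGCGAG, and TTCCCAG, which was added after the windows were seen. Neither the TATA box nor the palindrome was in these 8. Matches to the GC box and ETS cores can overlap. The lines read 5′ to 3′ on the gene's strand.
ZNF146, chr19:36214856-36215105, plus strand, no match: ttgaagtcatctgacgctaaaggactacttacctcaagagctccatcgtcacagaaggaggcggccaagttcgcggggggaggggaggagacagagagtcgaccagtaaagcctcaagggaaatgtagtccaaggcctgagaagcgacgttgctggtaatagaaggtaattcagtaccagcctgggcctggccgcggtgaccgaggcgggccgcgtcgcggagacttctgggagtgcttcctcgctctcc
ZNF302, chr19:34677428-34677677, plus strand, with matches to the GC box core, the ETS core and TTCCCAG: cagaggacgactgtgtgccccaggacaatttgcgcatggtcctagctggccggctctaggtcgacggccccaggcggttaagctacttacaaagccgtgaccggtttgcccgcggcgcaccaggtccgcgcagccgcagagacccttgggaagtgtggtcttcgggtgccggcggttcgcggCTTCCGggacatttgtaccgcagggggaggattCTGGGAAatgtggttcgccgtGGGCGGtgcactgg
ZNF580, chr19:55640752-55641001, plus strand, with matches to the CCAAT box, the GC box core and the ETS core: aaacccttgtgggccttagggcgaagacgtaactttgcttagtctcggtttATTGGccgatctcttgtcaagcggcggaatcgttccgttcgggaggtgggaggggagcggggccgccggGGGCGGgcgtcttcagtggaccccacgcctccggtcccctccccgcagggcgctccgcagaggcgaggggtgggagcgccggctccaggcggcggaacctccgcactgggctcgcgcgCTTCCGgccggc
ZNF296, chr19:45076479-45076728, minus strand, with GGGCGG: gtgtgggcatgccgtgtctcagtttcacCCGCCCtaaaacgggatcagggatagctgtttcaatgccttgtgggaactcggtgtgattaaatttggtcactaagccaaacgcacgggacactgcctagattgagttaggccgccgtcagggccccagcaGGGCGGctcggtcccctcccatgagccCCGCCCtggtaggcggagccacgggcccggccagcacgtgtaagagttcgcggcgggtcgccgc
ZNF611, chr19:52735045-52735294, minus strand, with GGGCGG: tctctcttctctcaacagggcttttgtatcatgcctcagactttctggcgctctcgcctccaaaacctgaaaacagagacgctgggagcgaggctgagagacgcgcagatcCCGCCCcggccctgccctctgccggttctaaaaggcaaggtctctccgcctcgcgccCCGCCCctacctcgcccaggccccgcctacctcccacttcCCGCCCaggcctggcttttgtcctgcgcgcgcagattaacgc
ZNF331, chr19:53520764-53521013, plus strand, with TTCCCAG: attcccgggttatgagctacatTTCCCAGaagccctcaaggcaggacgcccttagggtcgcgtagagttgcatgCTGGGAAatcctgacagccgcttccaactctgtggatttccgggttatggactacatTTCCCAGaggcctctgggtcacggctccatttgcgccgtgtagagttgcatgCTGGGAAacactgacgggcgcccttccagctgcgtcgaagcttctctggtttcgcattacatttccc
ZNF134, chr19:57613992-57614241, plus strand, with matches to the GC box core and the ETS core: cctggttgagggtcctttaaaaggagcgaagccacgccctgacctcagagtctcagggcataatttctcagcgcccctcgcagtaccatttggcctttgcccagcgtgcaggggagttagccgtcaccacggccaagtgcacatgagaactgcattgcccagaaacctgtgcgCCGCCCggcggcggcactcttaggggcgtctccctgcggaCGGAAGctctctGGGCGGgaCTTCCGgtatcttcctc
ZNF787, chr19:56121296-56121545, minus strand, with matches to the GC box core and the ETS core: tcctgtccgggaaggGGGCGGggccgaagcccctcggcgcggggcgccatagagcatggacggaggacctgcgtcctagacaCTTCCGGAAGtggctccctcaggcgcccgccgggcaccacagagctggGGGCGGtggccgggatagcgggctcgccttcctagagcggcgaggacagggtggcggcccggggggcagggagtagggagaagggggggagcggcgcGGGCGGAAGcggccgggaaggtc

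The promoter windows of the members as a group ran from 250 bases before to 50 bases after the start. CGGAAG was in 57.7% of the 208 member windows, 47.2% of those of ZNF genes on other chromosomes, 31.7% of those of other tested chromosome 19 genes and 19.5% of all 35116 windows in the table. TTCCCAG was in 29.3% of member windows and 10.8% of all windows, and CCAAT in 52.4% against 34.6%. TATAAA was in 1.92% of member windows and 11.5% of all windows, and CTCGCGAG in 0.962% and 1.02%. Shares in the windows of all tested genes were 32.9% for CGGAAG, 11.0% for TTCCCAG, 36.7% for CCAAT, 5.54% for TATAAA and 2.09% for CTCGCGAG. GGGCGG was in 69.7% of member windows, 70.4% of the windows of all tested genes and 45.0% of all windows. The median GC content was 60.0% in member windows and 65.3% in those of all tested genes. By call, at 12 h of 50 nM, CGGAAG was in 63.9% of the 36 windows of members that fell and in 59.8% of the 92 windows of the others, and GGGCGG in 75.0% and 63.0%. At 200 nM the shares were 64.0% of 50 and 57.5% of 80 windows for CGGAAG, and 64.0% and 68.8% for GGGCGG. These are matches of letters and are given as a description.

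Some libraries stood apart before any contrast was made. Over the 148 tested members, log2(FPKM + 1) in the library labelled KYSE510 DMSO correlated at 0.542 with the same line's 2 h library, whereas the corresponding TE7 pair correlated at 0.919; the points share depth and gene length, and no p is given. In that library KRT14 and PKP1, a keratin and a plakophilin of squamous cells, stood at 28.7 and 1.10 FPKM. The KYSE510 libraries at 50 nM held 449 to 564 and 92.4 to 105. KRT6A and DSG3 were low there too, at 14.4 and 20.8 FPKM against 1500 to 1810 and 63.0 to 71.2. KRT5 and TP63 were not, at 1470 and 79.7 FPKM against 1340 to 1880 and 19.1 to 92.2. KRT8 and KRT18 were higher, at 679 and 478 FPKM against 432 to 614 and 259 to 304. The KYSE510 library at 200 nM correlated with the line's others at 0.483 to 0.707 over the members. It had KRT14 at 2.62 FPKM, but KRT5 at 1010 and KRT6A at 930. Each contrast with DMSO includes the first of these libraries, and each contrast with 200 nM the second.

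The members were expressed at low levels. Over the 148 tested members the median FPKM was 2.09 in KYSE510 and 2.95 in TE7 with DMSO, and the most abundant member, ZNF146, averaged 33.1 FPKM over the 12 libraries. In TE7 the median member stood at 2.70, 1.96, 1.39 and 1.25 FPKM after 2, 4, 6 and 12 h at 50 nM and at 0.948 FPKM after 6 h at 200 nM. In KYSE510 it stood at 3.24, 2.43, 1.64 and 1.27 FPKM at 50 nM and at 0.886 FPKM at 200 nM. The level was thus lower at each later hour of 50 nM in both lines, and lowest at 200 nM; the library labelled KYSE510 DMSO was below those at 2 and 4 h. The number of members at or above 1 FPKM, of all 248, went from 141 in TE7 with DMSO to 132, 103, 94 and 85 along the 50 nM series and to 72 at 200 nM. In KYSE510 it was 112 with DMSO, 126, 110, 100 and 83 at 50 nM and 68 at 200 nM. Counts of all genes at or above 1 FPKM in TE7 were 13982 with DMSO, 13575, 13272, 12964 and 12364 at 50 nM and 12109 at 200 nM. Those in KYSE510 were 12963, then 13224, 12784, 12442 and 11685, and 11977 at 200 nM. The members' medians lay near this cut, so modest changes could carry many members across it.

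At 50 nM no member passed the test against DMSO at 2 or 4 h, and falls then accumulated. Changes are log2(FPKM + 1) differences averaged over the 2 lines, which understate changes of low genes; "called" means a limma adjusted p (Benjamini-Hochberg over the 15610 genes tested) under 0.05. All 5 contrasts with DMSO share the same 2 DMSO libraries. At 2 h, 0 members were called lower and 0 higher, against 0.0% and 0.0128% of all tested genes; 24 members (16.2%) had an unadjusted limma p under 0.05, against 10.8% of all genes. At 4 h the counts were again 0 and 0, against 0.0512% and 0.0256%, with 35 members (23.6%) at an unadjusted p under 0.05, against 15.8% of all genes. At 6 h, 9 members (6.08%) were called lower and 1 higher, against 4.02% and 0.692% of all genes. Leaving out any single library at 2, 4 or 6 h of 50 nM removed every member call at 6 h. It also removed every lower call among all genes. Leaving out TE7 DMSO or either 200 nM library raised the lower count, and also the share of all genes. At 12 h, 40 members (27.0%) were called lower and 3 (2.03%) higher, against 25.2% and 3.27%. The lower count fell without the KYSE510 or the TE7 library at 12 h, and so did the share of all genes. With all 12 libraries in the fit, the members' share called was near that of all genes at each of these times.

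At 200 nM for 6 h, 58 members (39.2%) were called lower and 1 higher, against 35.3% and 3.22% of all genes. ZNF genes on other chromosomes had larger shares called lower, 16.7% at 6 h, 37.4% at 12 h and 50.7% at 200 nM over 203 tested genes, and the 927 other tested genes of chromosome 19 had shares of 3.67%, 23.7% and 30.1%. The direct contrast of doses at 6 h called 22 members (14.9%) lower at 200 nM and 1 higher, against 21.9% and 2.94%. The lower count fell steeply without either library at 6 h of 50 nM and rose without either DMSO library. The share of all genes moved the same way. The contrast of 12 h with 2 h at 50 nM, which uses no DMSO library, called 32 members (21.6%) lower and 1 higher, against 20.0% and 1.88%. That lower count fell without either library at 12 h, fell most without either 2 h library, and rose without either DMSO library. The share of all genes moved the same way each time.

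**Figure D1:**
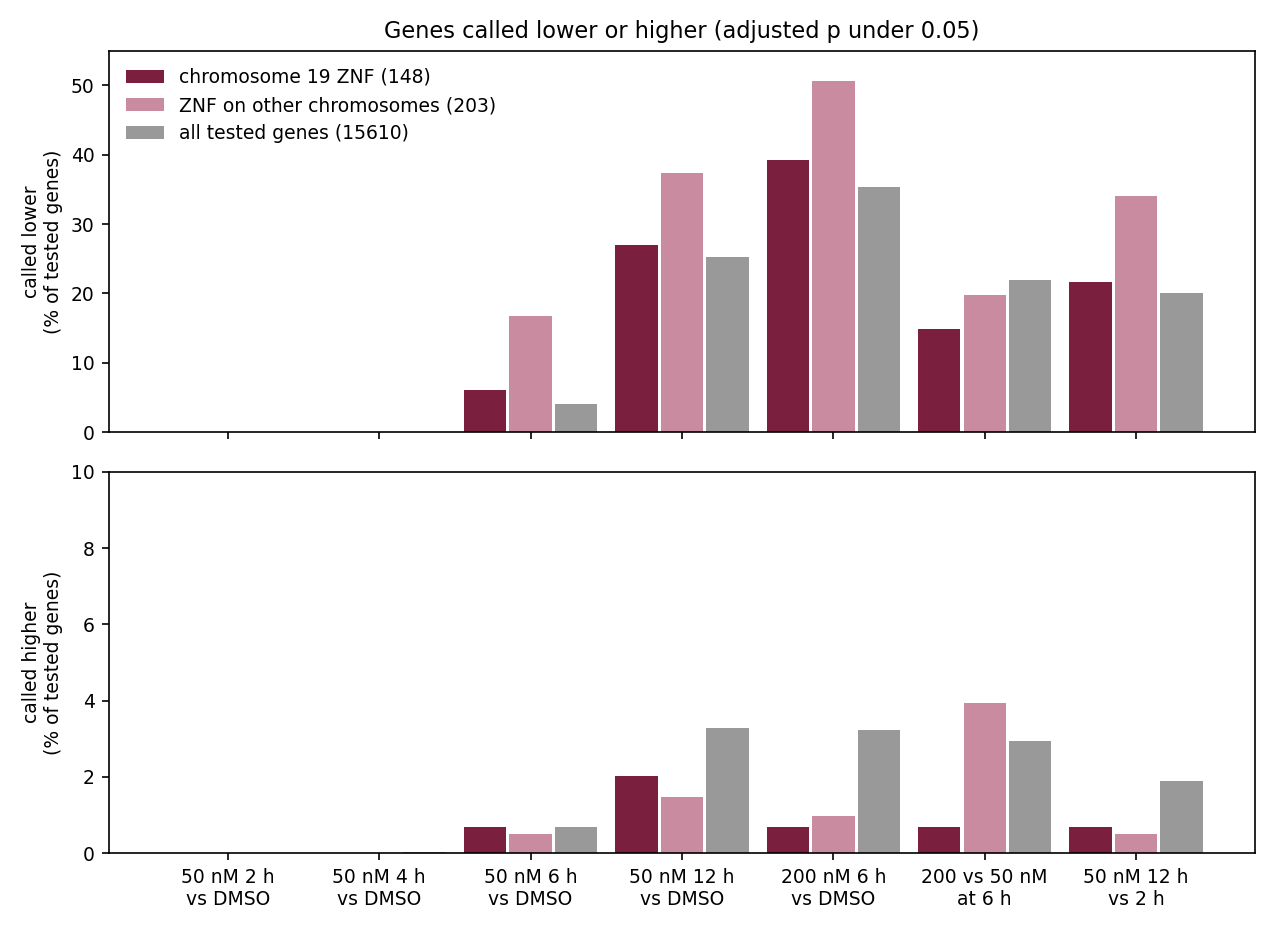
Share of genes called lower (top) and higher (bottom) in each contrast, in percent of the genes tested, for the 148 ZNF genes of chromosome 19, the 203 on other chromosomes and all 15610 genes. In this fit of all 12 libraries the chromosome 19 members stand near all genes, at 27.0% against 25.2% lower at 12 h and 39.2% against 35.3% at 200 nM.

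Medians of the change differed by line. The median change of the tested members was 0.19, -0.15, -0.36 and -0.48 at 2, 4, 6 and 12 h and -0.80 at 200 nM; over all tested genes it was 0.00, -0.06, -0.15, -0.42 and -0.65. In TE7 alone the members' median was -0.09, -0.36, -0.62 and -0.67 at 50 nM and -0.97 at 200 nM. In KYSE510 alone it was 0.46, 0.13, -0.14 and -0.37 at 50 nM and -0.72 at 200 nM. From 2 to 12 h, 116 members (78.4%) were lower in both lines, against 61.5% of all genes. At 12 h against DMSO 86 (58.1%) were, against 52.4%, and at 200 nM 104 (70.3%), against 60.0%. For ZNF genes on other chromosomes these shares were 75.9%, 58.6% and 71.4%. The median change of those genes was -0.63 at 12 h and -0.87 at 200 nM.

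FPKM is relative to the whole library, and the median gene was itself lower with THZ1. Scaling the libraries by their median of ratios moved the median of all genes at 12 h from -0.42 to 0.03 and at 200 nM from -0.65 to -0.01. On that scale 21 members (14.2%) were called lower and 9 (6.08%) higher at 12 h, against 10.7% and 11.6% of all genes, and 27 (18.2%) lower and 6 (4.05%) higher at 200 nM, against 12.1% and 12.2%. The members' median change was then -0.17 at 12 h and -0.37 at 200 nM. That of ZNF genes on other chromosomes was -0.155 and -0.252. The members' median was below that of all genes on both scales. It was above it with a pseudocount of 5 (-0.18 against -0.23 at 12 h and -0.295 against -0.367 at 200 nM), and at 12 h also among genes with a mean of at least 5 FPKM (-0.29 against -0.40) and without TE7 DMSO (-0.29 against -0.32).

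The counts were repeated without certain libraries. Without the library labelled KYSE510 DMSO, the members called lower, of 141 tested, were 4 at 6 h, 42 at 12 h and 69 at 200 nM, against 1.97%, 23.7% and 34.4% of all genes. From 2 to 12 h, 54 members were then called lower, against 26.8%. Without that library and both 200 nM libraries, the counts were 22, 58 and 75 of the members at 4, 6 and 12 h and 84 from 2 to 12 h, against 8.01%, 20.0%, 44.6% and 46.5%. In these fits the remaining TE7 DMSO library is a lone sample, assumed to vary like the other conditions. Without the library labelled KYSE510 DMSO the members' median change was -0.63 at 6 h, -0.73 at 12 h and -1.065 at 200 nM. Over all genes it was then -0.22, -0.49 and -0.74. With both 200 nM libraries left out as well, the members' median was -0.35, -0.59 and -0.70 at 4, 6 and 12 h, against -0.14, -0.215 and -0.50.

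TE7 alone has no replicate, so its changes are given by size. With a fall of at least 1 on the log2(FPKM + 1) scale, 2 members (1.35%) were lower at 2 h, 14 (9.46%) at 4 h, 29 (19.6%) at 6 h and 46 (31.1%) at 12 h, and 72 (48.6%) at 200 nM. The shares of all tested genes were 1.82%, 5.08%, 10.8%, 30.1% and 37.8%. In TE7 the member share was above that of all genes at 4 and 6 h and at 200 nM, and near it at 12 h. Members higher by at least 1 numbered 1, 1, 2 and 1 along the 50 nM series and 0 at 200 nM, against 1.45%, 1.97%, 2.42%, 3.44% and 3.74% of all genes. Markers of fibroblasts, leukocytes and endothelium were low beside epithelial ones: the summed FPKM of the fibroblast list was 3.60 to 11.3 and that of the leukocyte list, mostly CD68, 2.31 to 15.1. VWF and CDH5, the endothelial markers found, summed to at most 0.847. The squamous list summed to 1540 to 4430, and the simple epithelium list (KRT8, KRT18 and EPCAM) to 848 to 1340 in KYSE510 and 441 to 657 in TE7. In bulk RNA, fewer cells and less RNA per cell cannot be told apart.

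Among the members that fell, ZNF146 (ENSG00000167635; chr19:36705504-36729676 on hg19, as for all gene coordinates) was the most abundant. It encodes a protein made almost wholly of zinc fingers, with no KRAB domain. The KYSE510 libraries held 107 FPKM with DMSO, 50.9, 43.2, 33.7 and 11.1 at 2, 4, 6 and 12 h of 50 nM, and 6.01 at 200 nM. Those of TE7 held 37.0, 39.2, 31.8, 22.1 and 10.0, and 4.71 at 200 nM. The 12 h and 200 nM libraries were the lowest of each line, and neither overlapped DMSO. The log2 change was -2.47 (SE 0.32, limma adjusted p 0.00211) at 12 h and -3.34 (adjusted p 0.000479) at 200 nM. ZNF146 was also lower at 200 than at 50 nM at 6 h, by -2.16 (adjusted p 0.00323), and at 12 h than at 2 h, by -1.98 (adjusted p 0.00634; 0.055 or 0.068 without the KYSE510 or TE7 2 h library).

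ZNF302 (chr19:35168544-35177302), a KRAB zinc finger gene, was 1 of the 9 members already called lower at 6 h. In KYSE510 it stood at 13.4 FPKM with DMSO, 10.3, 5.34, 2.99 and 2.40 at 50 nM, and 1.66 at 200 nM. In TE7 it stood at 10.8, 5.84, 3.09, 2.14 and 1.65, and 2.72 at 200 nM. Every THZ1 library was below its line's DMSO library, and the level was lower at each later hour. The log2 change was -1.89 at 6 h (SE 0.31, limma adjusted p 0.0223), -2.12 at 12 h (adjusted p 0.00295) and -2.06 at 200 nM (adjusted p 0.00201). Without single libraries the adjusted p of ZNF302 at 6 h reached 0.255, and without the library labelled KYSE510 DMSO it was 0.0614. The other members called lower at 6 h were ZNF526, ZNF627, ZNF766, ZNF524, ZNF579, ZNF559, ZNF558 and ZNF225, with log2 changes from -1.56 to -1.01.

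ZNF558 (chr19:8920380-8943004) was lower at 6 h of 50 nM than at 6 h of 200 nM in the libraries of both lines. The KYSE510 values were 10.1 FPKM with DMSO, then 7.78, 4.48, 3.55 and 1.61 at 50 nM, and 5.89 at 200 nM; those in TE7 were 11.4, 8.68, 5.61, 4.25 and 2.49, and 6.97. The 200 nM libraries lay above those of 4, 6 and 12 h at 50 nM and below those of 2 h. Against DMSO the change was -1.96 at 12 h (limma adjusted p 0.00124) and -0.67 at 200 nM (adjusted p 0.0295), and the difference between doses at 6 h, 0.60, did not pass (adjusted p 0.0584). With median-of-ratios scaling the change at 200 nM was 0.11.

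ZNF561 (chr19:9715356-9732075) lies in the same cluster as ZNF558. Its KYSE510 values were 10.3 FPKM with DMSO, 22.4, 9.05, 5.49 and 3.04 at 50 nM, and 2.02 at 200 nM; those in TE7 were 11.0, 11.3, 4.97, 2.91 and 1.73, and 2.39. The 12 h and 200 nM libraries were the lowest of each line. Its change was -1.81 at 12 h (SE 0.32, limma adjusted p 0.00592) and -2.35 from 2 to 12 h (adjusted p 0.00407). ZNF414 (chr19:8575462-8579048), at the start of that cluster, was 6.98 FPKM in KYSE510 and 9.62 in TE7 with DMSO. It was 6.35 and 5.77 at 6 h, and 2.43 and 1.73 at 12 h. Its change from 2 to 12 h was -1.84 (limma adjusted p 0.00424).

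ZNF579 (chr19:56088899-56092211) went from 9.47 FPKM in KYSE510 and 11.3 in TE7 with DMSO to 3.0 and 2.27 at 12 h, and 1.59 and 2.26 at 200 nM. Its log2 change was -1.65 at 12 h (limma adjusted p 0.00248) and -1.97 at 200 nM (adjusted p 0.000808). ZNF524, whose protein binds telomeric repeats, went from 10.5 and 6.68 FPKM to 1.84 and 2.07 at 12 h, with a change of -1.67 (adjusted p 0.00275). ZNF274, whose protein brings SETDB1 to the 3′ ends of ZNF genes, stood at 5.5 FPKM in KYSE510 and 8.42 in TE7 with DMSO and at 1.40 and 1.23 at 12 h. The change of ZNF274 at 12 h was -1.76 (SE 0.48, adjusted p 0.0291) and from 2 to 12 h -2.17 (adjusted p 0.0177). ZNF579, ZNF524 and ZNF274 were all lower at 12 h than with DMSO in both lines.

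ZNF317, ZNF226 and ZNF507 differed between doses at 6 h. ZNF317 (chr19:9251056-9274100), a KRAB zinc finger gene, stood in KYSE510 at 9.86 FPKM with DMSO, 13.1, 11.5, 10.9 and 12.1 at 50 nM, and 2.19 at 200 nM. In TE7 it stood at 13.4, 18.5, 17.1, 14.8 and 20.2, and 1.69 at 200 nM. All 8 libraries at 50 nM were above their line's DMSO, and both at 200 nM were far below. The log2 change was 0.41 at 12 h (limma adjusted p 0.254), -2.10 at 200 nM against DMSO (SE 0.25, adjusted p 0.00094) and -2.23 at 200 against 50 nM (adjusted p 0.00129). ZNF226 (chr19:44669226-44682534) stood at 6.90 FPKM in both lines at 6 h of 50 nM and at 2.11 in KYSE510 and 2.40 in TE7 at 200 nM. The difference was -1.28 (adjusted p 0.00577; up to 0.0651 without either 6 h library), and ZNF226 also fell at 12 h, with a change of -1.002 (adjusted p 0.013). ZNF507 (chr19:32836500-32878573) was 8.56 and 7.68 FPKM at 50 nM and 2.84 and 2.61 at 200 nM, a difference of -1.29 (adjusted p 0.00326; 0.0525 without the KYSE510 library at 6 h).

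On the FPKM scale few members were called higher: ZNF296, ZNF580 and ZNF749 at 50 nM, ZNF460 at 200 nM, and ZNF814 in the dose contrast. With median-of-ratios scaling 9 members (6.08%) were called higher at 12 h, against 11.6% of all genes. Among these were ZNF428 (log2 change 1.73, limma adjusted p 0.0117), ZNF529 (1.305, 0.0372), ZNF121 (1.075, 0.0194) and ZNF317 (0.99, 0.0359). Unscaled, ZNF428 changed by 1.16 at 12 h (adjusted p 0.0505). ZNF296 (chr19:45574758-45579846) encodes a zinc finger protein studied in reprogramming to pluripotency. In KYSE510 it stood at 2.38 FPKM with DMSO, 7.32, 7.79, 8.57 and 11.5 at 50 nM, and 1.81 at 200 nM. In TE7 it stood at 4.28, 9.56, 9.68, 10.2 and 8.80, and 3.0 at 200 nM. All 50 nM libraries were above DMSO and both 200 nM libraries below it. The log2 change was 1.15 at 2 h (limma adjusted p 0.283), 1.29 at 6 h (SE 0.27, adjusted p 0.0406) and 1.39 at 12 h (adjusted p 0.00799). At 6 h the adjusted p was 0.115 without the library labelled KYSE510 DMSO and up to 0.302 without other single libraries. At 200 nM the change was -0.33 (adjusted p 0.347), and ZNF296 was lower there than at 50 nM by -1.62 (adjusted p 0.0049).

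ZNF580 (chr19:56146382-56154835) stood in KYSE510 at 12.8 FPKM with DMSO, 25.3, 27.8, 34.9 and 46.5 at 50 nM, and 22.2 at 200 nM. In TE7 it stood at 26.8, 23.7, 30.0, 36.1 and 53.4, and 23.7 at 200 nM. The 12 h library was the highest of each line. The log2 change was 1.38 at 12 h (SE 0.27, limma adjusted p 0.00883, and 0.0513 or 0.0543 without the KYSE510 or TE7 12 h library). Without the library labelled KYSE510 DMSO the change at 12 h was 0.91. With all libraries it was 0.995 from 2 to 12 h (adjusted p 0.0366, and up to 0.233 without single libraries) and 0.29 at 200 nM (adjusted p 0.427). The locus of ZNF580 overlaps that of ZNF581 (chr19:56146825-56156988). ZNF581 fell at 200 nM. In KYSE510 it stood at 22.9 FPKM with DMSO and 3.69 at 200 nM, in TE7 at 17.6 and 4.77. The change of ZNF581 at 200 nM was -2.02 (adjusted p 0.00256) and at 12 h -0.94 (adjusted p 0.0625). With median-of-ratios scaling the change of ZNF580 at 200 nM was 1.12 (adjusted p 0.0146).

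ZNF749 (chr19:57946697-57956853) stood in KYSE510 at 5.11 FPKM with DMSO, 7.92, 10.0, 10.0 and 9.54 at 50 nM, and 5.49 at 200 nM. In TE7 it stood at 7.94, 9.48, 14.3, 17.4 and 17.9, and 6.04 at 200 nM. The 50 nM libraries were all above DMSO, by a log2 change of 0.93 at 12 h (limma adjusted p 0.0222; 0.0613 without the library labelled KYSE510 DMSO and 0.146 without TE7 at 12 h), and the 200 nM libraries were below 50 nM by -1.08 (adjusted p 0.0148). ZNF460 (chr19:57791419-57804937) went from 0.265 FPKM in KYSE510 and 0.365 in TE7 with DMSO to 1.99 and 1.15 at 200 nM, a change of 0.95 (adjusted p 0.0166; 0.0633 without the library labelled KYSE510 DMSO). ZNF814 (chr19:58360099-58400442) went from 0.805 and 0.480 FPKM at 6 h of 50 nM to 3.08 and 1.43 at 200 nM, a difference of 0.95 (adjusted p 0.0459; 0.159 without the KYSE510 library at 200 nM). ZNF749, ZNF460 and ZNF814 lie in the cluster nearest the chromosome's end.

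**Figure D2:**
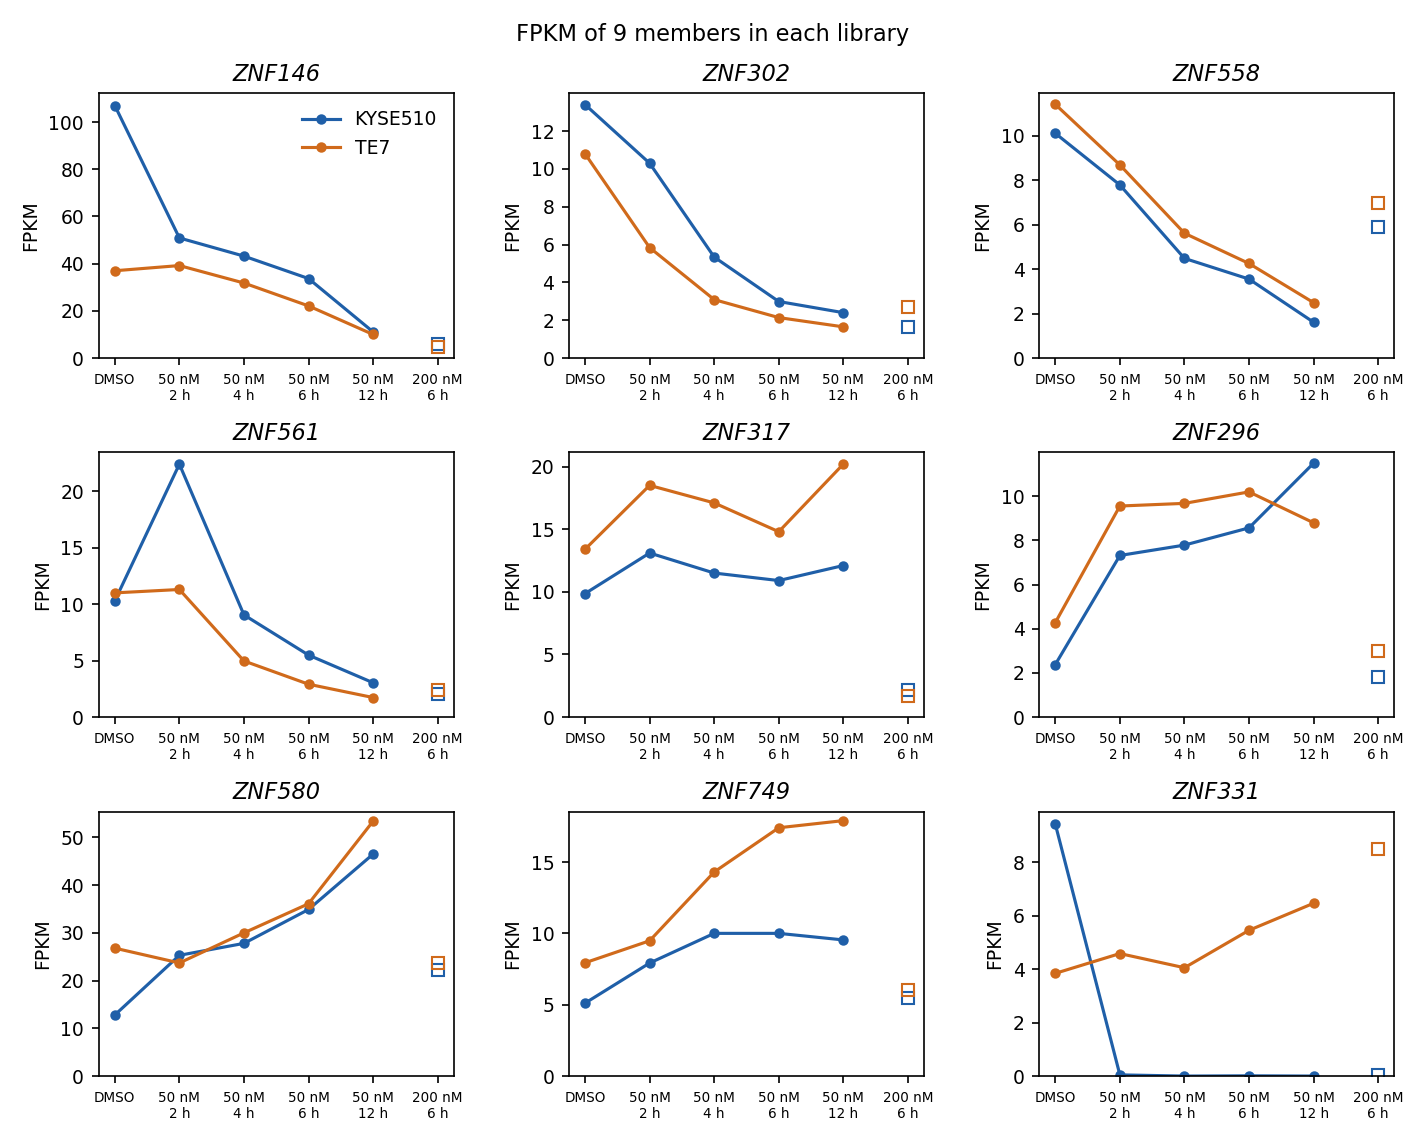
FPKM of 9 members in every library, 1 panel per gene; lines join DMSO and the hours of 50 nM for each cell line, and open squares show 200 nM at 6 h. By 12 h ZNF146 was at 11.1 FPKM (107 with DMSO) in KYSE510 and at 10.0 (37.0 with DMSO) in TE7, while ZNF296 was higher at 50 nM and lower at 200 nM in both lines.

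By position, the 248 members fell into 10 clusters of at least 5 members, separated by more than 500 kilobases and holding 236 members, with 12 scattered members. The clusters are called by their first and last member. The counts below stand beside 25.2% of all tested genes lower at 12 h and 35.3% at 200 nM; shares in single clusters lay on both sides of these, and no difference between clusters was tested. In ZNF414 to ZNF846 (chr19:8575462-9903856), 5 of 12 tested members fell at 12 h and 7 at 200 nM, with median log2 changes of -1.005 and -0.999. In ZNF807 to ZNF792 (chr19:35033367-35454953), which holds ZNF302, 2 of 4 fell at 12 h and 4 at 200 nM, with medians of -1.05 and -1.48. In ZNF175 to ZNF331 (chr19:52074551-54083523), 8 of 27 fell at 12 h and 10 at 200 nM, with medians of -1.004 and -1.17. This cluster holds most of the members, listed below, that were on in the library labelled KYSE510 DMSO and off in that line at 50 nM. From 2 to 12 h, with no DMSO library, its median was -0.51, against -0.61 over all tested members. In ZNF653 to ZNF791 (chr19:11594242-12750912), 6 of 12 fell at 12 h and 4 at 200 nM, with medians of -0.83 and -0.59.

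In ZNF575 to ZNF180 (chr19:44029649-45004576), 6 of 17 tested members fell at 12 h and 12 at 200 nM, with medians of -0.72 and -1.04. In ZNF628 to ZNF835 (chr19:55987699-57183151), 4 of 9 fell and 1, ZNF580, rose at 12 h, and 6 fell at 200 nM, with medians of -0.94 and -0.88. In ZNF101 to ZNF254 (chr19:19779605-24312654), only 10 of 36 members could be tested; 1 fell at 12 h and 3 at 200 nM, with medians of -0.34 and -0.77. In ZNF554 to ZNF77 (chr19:2819872-2944969), 0 of 4 fell at 12 h and 2 at 200 nM, with medians of -0.45 and -0.72.

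The smallest changes were in ZNF565 to ZNF573 and ZNF264 to ZNF446. In ZNF565 to ZNF573 (chr19:36673188-38307940), which holds ZNF146, 2 of 10 tested members fell at 12 h and 1 at 200 nM, with medians of -0.07 and -0.30. ZNF264 to ZNF446 (chr19:57702868-58992597) is the largest cluster, with 34 of 42 members tested. There 4 fell and 1 rose at 12 h, 4 fell and 1 rose at 200 nM, and the medians were -0.24 and -0.38. With median-of-ratios scaling the medians of these clusters turned positive, to 0.25 and 0.11 for ZNF565 to ZNF573 and 0.17 and 0.03 for ZNF264 to ZNF446, at 12 h and 200 nM; those of the other 8 stayed negative. Without the library labelled KYSE510 DMSO they were -0.69 and -0.96 for ZNF565 to ZNF573 and -0.56 and -0.89 for ZNF264 to ZNF446. From 2 to 12 h, with no DMSO library, their medians were -0.41 and -0.63, against -0.61 over all tested members.

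Neighbours along the chromosome had somewhat closer changes than members at large. The median absolute difference between neighbouring tested members of a cluster, over 129 pairs, was 0.47 at 12 h against DMSO, and 0.76 over all pairs of tested members. At 200 nM it was 0.50 against 0.68, and from 2 to 12 h 0.48 against 0.54. Neighbours are often near relatives whose fragments can be split between them.

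**Figure D3:**
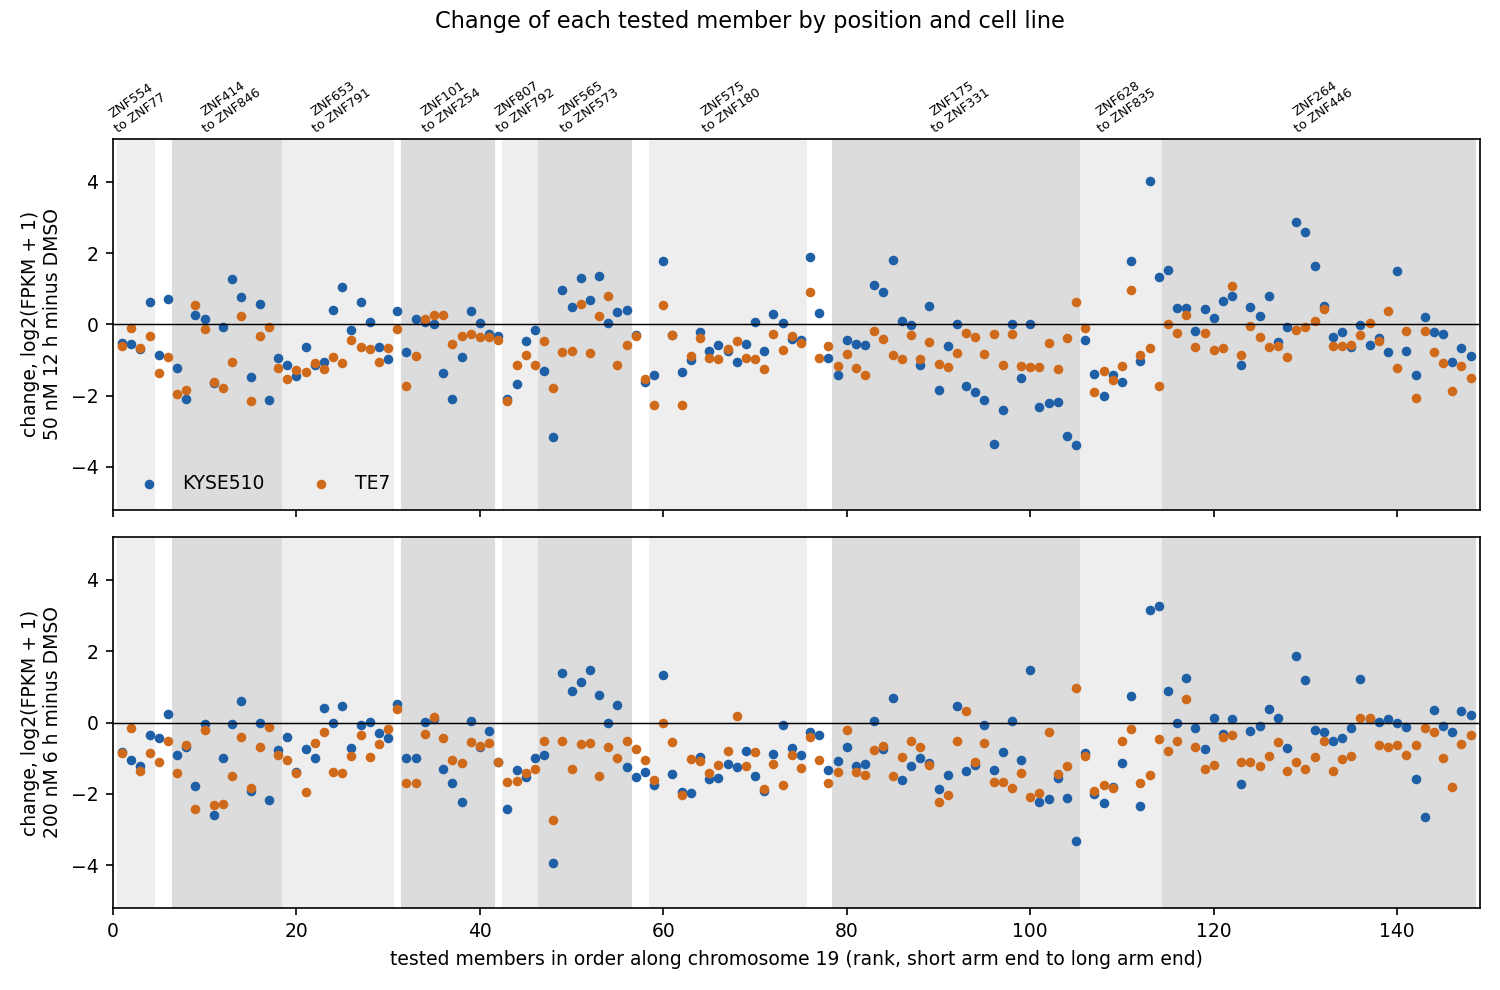
Log2 change of each of the 148 tested members, in order along chromosome 19, at 12 h of 50 nM (top) and at 200 nM (bottom), with 1 point per line and member; grey bands are clusters. Most points lie below 0, with TE7 medians of -0.67 and -0.97, and KYSE510 has points far to either side.

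A block of neighbouring members was off in the 4 KYSE510 libraries at 50 nM. Defining off as under 0.1 FPKM and on as at least 1 FPKM, limits chosen after the values were seen, 16 tested members (10.8%) were off in all 4 KYSE510 libraries at 50 nM, against 3.65% of all tested genes. In TE7 only ZNF556 (0.676%) was, against 1.97%. In KYSE510, 9 of the 16 were neighbours among the tested members, from ZNF528 through ZNF83, ZNF611, ZNF600, ZNF28, ZNF468, ZNF888 and ZNF816 to ZNF160 (chr19:52901102-53606689), with no other tested gene between them. In TE7 with DMSO all 9 were on. A tested member needed 1 FPKM in at least 2 libraries. One that was off in these 4 KYSE510 libraries could reach that only in TE7, or in KYSE510 with DMSO and at 200 nM. The TE7 levels of these members, and the off counts of both lines, were therefore partly set by the filter. In the library labelled KYSE510 DMSO 6 of the 9 were on, and in the KYSE510 library at 200 nM 4 were.

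ZNF28 and ZNF611 illustrate that block. In KYSE510 ZNF28 stood at 9.16 FPKM with DMSO, 0.00827, 0.00954, 0.00424 and 0.0 at 50 nM, and 3.06 at 200 nM. In TE7 ZNF28 stood at 2.49, 2.80, 1.19, 2.75 and 1.90, and 0.103 at 200 nM. ZNF611 stood at 2.72 FPKM in KYSE510 with DMSO, was listed at 0 in all 4 at 50 nM, and stood at 0.615 at 200 nM; in TE7 it was 1.45 with DMSO, 0.905 to 1.60 at 50 nM and 0.142 at 200 nM. Both genes were thus above 0.1 FPKM in KYSE510 only outside the 50 nM libraries. ZNF160 was 0.0 to 0.00413 FPKM in the KYSE510 libraries with DMSO and at 50 nM and 1.76 at 200 nM; in TE7 it went from 8.77 with DMSO to 3.22 at 12 h and 1.29 at 200 nM.

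Over all members, 9 (6.08%) were on in the library labelled KYSE510 DMSO and off at all 4 times of 50 nM, against 0.468% of all genes: ZNF430, ZNF83, ZNF611, ZNF600, ZNF28, ZNF468, ZNF816, ZNF525 and ZNF331. All but ZNF430 lie in ZNF175 to ZNF331. Another 9 were off in that library and on at all 4 times, against 1.45%: ZNF20, ZNF529, ZNF567, ZNF614, ZNF787, ZNF444, ZNF530, ZNF134 and ZNF606. TE7 had 0 members of either kind, against 0.0256% and 0.0512% of all genes. ZNF331, an imprinted gene, stood at 9.42 FPKM in the library labelled KYSE510 DMSO, at 0.0 to 0.0443 at 50 nM and at 0.0496 at 200 nM. ZNF787 stood at 0.0461 FPKM in that library, at 16.0 to 26.1 at 50 nM and at 8.34 at 200 nM; in TE7 it was 17.8 with DMSO. These members were already off or on at 2 h, and the same library differed in some keratins, KRT14 and KRT6A among them. The part of THZ1 in these differences was not tested.

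**Figure D4:**
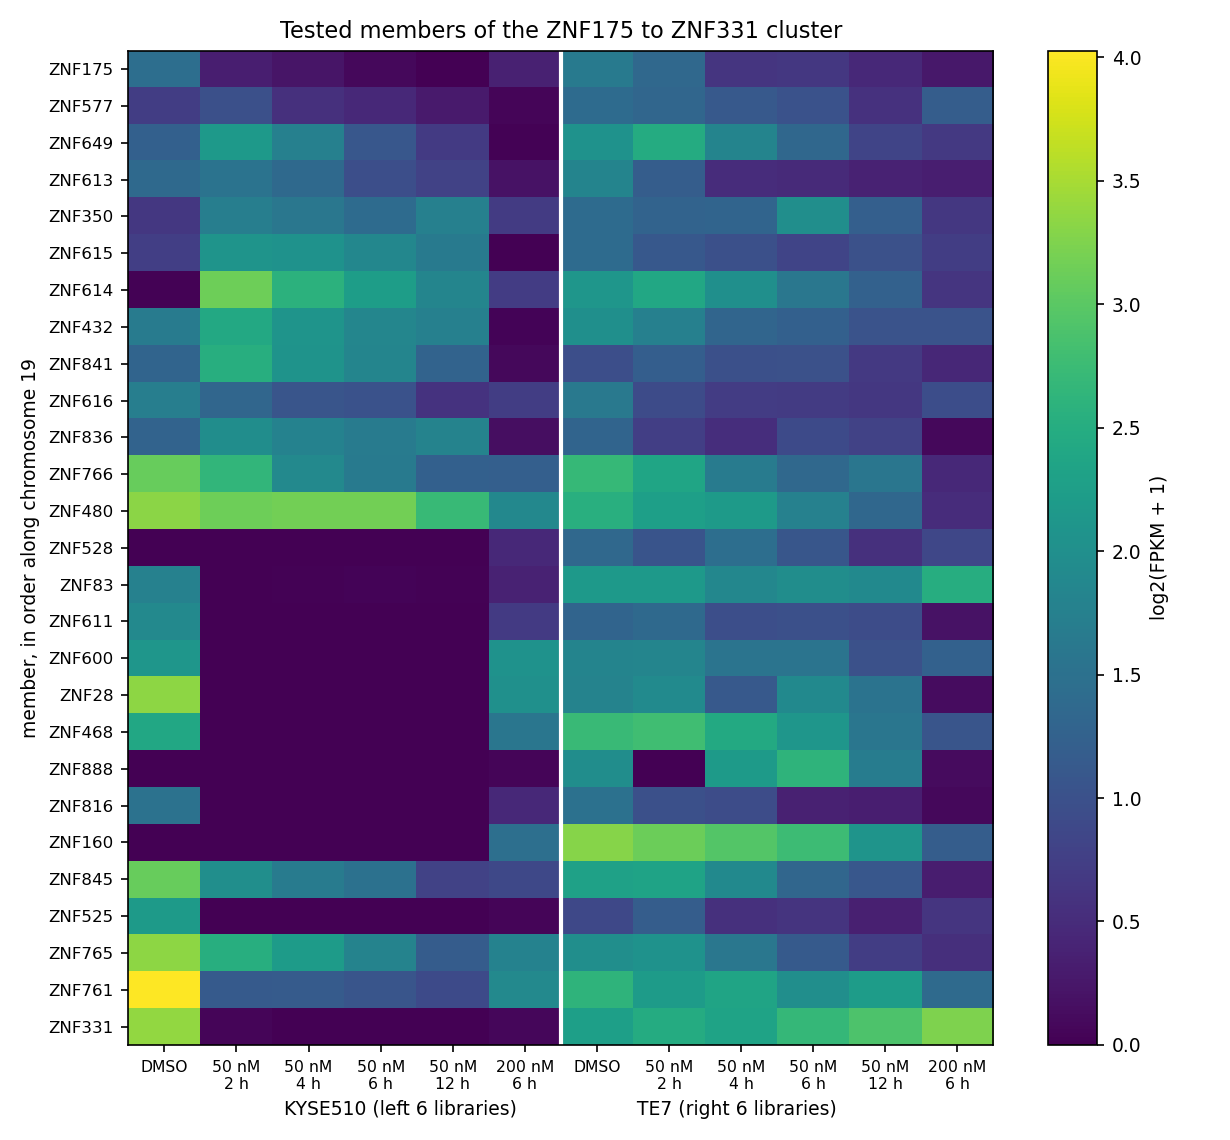
Heat map of log2(FPKM + 1) for the 27 tested members of the ZNF175 to ZNF331 cluster (rows, in chromosome order) in the 12 libraries (columns). A run of members from ZNF528 to ZNF160 is near 0 in the 4 KYSE510 libraries at 50 nM; in TE7 with DMSO all 9 are at or above 1 FPKM.

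The mean change at 50 nM was set between the lines as an interaction of treatment and line. The 4 hours at 50 nM stand as replicates there and each line has 1 DMSO library, so the fit's p-values do not measure how DMSO libraries vary, and the difference is given as a description. It was called lower in KYSE510 than in TE7 for 9 members (6.08%) and higher for 9, against 3.77% and 6.19% of all genes. The 9 lower were ZNF331, ZNF28, ZNF761, ZNF611, ZNF600, ZNF525, ZNF83, ZNF430 and ZNF714, and the 9 higher were ZNF787, ZNF134, ZNF606, ZNF20, ZNF530, ZNF615, ZNF44, ZNF461 and ZNF358. One of the 2 DMSO libraries is the one that stood apart.

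Averaged over the 6 conditions, 23 members (15.5%) were lower in KYSE510 than in TE7 and 25 (16.9%) were higher, against 28.9% and 17.5% of all genes; with median-of-ratios scaling the counts were 20 and 34, against 23.3% and 22.0%. The largest difference was that of ZNF714, which stood at 3.36 FPKM with DMSO and at 0.0283 to 0.109 at 50 nM in KYSE510, and at 8.24 and 5.33 to 8.84 in TE7. Its log2 difference was -2.45 (limma adjusted p 0.000865). The 6 libraries of a line stood as its replicates in this contrast, so the p-values here measure spread over the conditions only. ZNF160 followed with -2.32 (adjusted p 0.00487) and ZNF430 with -2.20 (adjusted p 0.000695). The cluster ZNF101 to ZNF254, which holds ZNF714 and ZNF430, had 7 of 10 tested members lower in KYSE510 and 0 higher, with a median difference of -1.35. In KYSE510 ZNF682, ZNF506, ZNF254 and ZNF708 reached at most 0.0719, 0.199, 0.209 and 0.884 FPKM. These members could pass the filter of 1 FPKM only through TE7, so the count of this cluster was partly set by the filter. ZNF264 to ZNF446 had 4 lower and 10 higher. Among the higher members, ZNF586 stood at 1.48 to 8.32 FPKM in KYSE510 and 0.111 to 1.27 in TE7, a difference of 1.56 (adjusted p 0.00362), with no overlap. ZNF121 stood at 14.4 to 38.6 FPKM in KYSE510 and 7.18 to 17.0 in TE7, a difference of 1.15 (adjusted p 0.00109), with the KYSE510 DMSO value inside the TE7 range.

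The proteins that KRAB zinc fingers work with were read from a list of 20 genes, of which 19 were tested. At 2 and 4 h 0 were called in either direction, at 6 h 4 were lower, at 12 h 7 and at 200 nM 13, with 0 higher in any of these; of all tested genes 4.02%, 25.2% and 35.3% were lower. The list's median log2 change was -0.62 at 12 h and -1.20 at 200 nM, against -0.42 and -0.65 over all genes. FAM208A, which encodes the TASOR subunit of the HUSH silencing complex, stood in KYSE510 at 31.5 FPKM with DMSO, 20.2, 14.2, 10.2 and 2.82 at 50 nM, and 3.94 at 200 nM. The TE7 values were 28.4, 25.8, 16.5, 11.0 and 1.60, and 4.16. FAM208A was lower at each later hour in both lines, and its change at 12 h was -3.29 (SE 0.25, limma adjusted p 0.00108). At 12 h CBX5, an HP1 protein, changed by -2.42 (adjusted p 0.00207), MORC2, a HUSH partner, by -2.12 (adjusted p 0.00159) and SETDB1 by -1.14 (adjusted p 0.0129). The other HP1 genes listed did not pass at 12 h, with CBX1 at -0.51 (adjusted p 0.165) and CBX3 at -0.17 (adjusted p 0.595). Nor did the HUSH genes MPHOSPH8, at -0.62 (adjusted p 0.151), and PPHLN1, at -0.40 (adjusted p 0.349). TRIM28 itself was 110 FPKM in KYSE510 and 215 in TE7 with DMSO and 248 and 243 at 12 h, a change of 0.67 that did not pass (adjusted p 0.0621). TRIM28 was lower at 200 than at 50 nM, with 122 against 207 FPKM in KYSE510 and 159 against 272 in TE7 (-0.76, adjusted p 0.0451).

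The members' values had wider bounds than those of all genes. FPKM summed to 383975 to 729515 per library, and no source used here gives the number of fragments. Among members at or above 1 FPKM, the upper 95% bound that the authors give lay a median of 11.9% to 23.9% above the value. Over all tested genes at or above 1 FPKM it was 7.13% to 10.4%. The 2 sets were not matched for level, and these bounds do not measure how cultures vary.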

How the data were processed

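RNA-seq gene tables of 12 libraries were used. They hold FPKM as the authors deposited it, with Cufflinks' column names per the file headers. Per the submitters' processing notes, reads went through STAR and Cufflinks on hg19; no version, setting or annotation is given in the sources used here. Of 57755 gene identifiers, on 57869 lines, 108 are listed at several loci and were summed; 2 members were among them. A table of the whole series was not used.

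The 15610 genes reaching 1 FPKM in 2 or more libraries were tested as log2(FPKM + 1) with limma 3.58.1 in R 4.3.3, with a term per condition and the cell line as block, variances following the mean, two-sided tests, Benjamini-Hochberg adjustment over all tested genes and a threshold of 0.05. Same-numbered libraries come from the same line, so the pairing holds by design. The model left 5 residual degrees of freedom plus 2.86 from the prior; the interaction of 50 nM treatment and line, over 10 libraries, left 6 plus 2.49. The fit was tested on simulated data. A cluster began after a gap over 500 kilobases.

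The members, lists and tests were chosen with earlier results of these data known. Named members were those called higher against DMSO or between doses; per contrast the 6 largest falls and 3 largest rises by the weaker line among members with a mean of at least 5 FPKM; the 6 most abundant; and the largest line differences. The texts name a subset; ZNF611, ZNF134 and ZNF525, the on and off lists, and the other members listed by call were picked after their values were seen. Partners and cell type markers were fixed lists. Promoter sequences are from RefSeq (GRCh38.p14); planned protein features were not run.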

Additional observations from a re-analysis of the deposited data

Results flagged for a closer look

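In the limma interaction of 50 nM treatment and line, 9 members were called lower and 9 higher in KYSE510 than in TE7. That fit takes the 4 hours of 50 nM as replicates and has 1 DMSO library per line, so its p-values do not measure how DMSO libraries vary and are not given. The largest differences in log2 response, KYSE510 minus TE7, were -3.69 for ZNF331, -3.16 for ZNF28 and -2.55 for ZNF761 among the lower. Among the higher they were 4.43 for ZNF787, 3.25 for ZNF134 and 2.91 for ZNF606. ZNF761 was at 15.3 FPKM in KYSE510 with DMSO and at 0.873 to 1.24 at 50 nM in that line, and at 5.11 and 2.98 to 4.10 in TE7. ZNF134 was at 0.00503 FPKM in KYSE510 with DMSO and at 5.09 to 12.7 at 50 nM, and at 3.27 and 2.55 to 3.77 in TE7. ZNF606 stood at 0.0249 FPKM and 1.57 to 4.08 in KYSE510, and at 2.89 and 0.561 to 1.0 in TE7. All of these differences rest on the 1 library labelled KYSE510 DMSO, in which some keratins also stood apart, and its part in them was not tested.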

How the results depend on the processing

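Counts below are of members called lower and higher. Shares of all genes called lower come first, for 6 h, 12 h, 200 nM, between doses and 2 to 12 h. They were 2.0%, 27.3%, 45.3%, 36.1% and 25.1% with a mean of at least 5 FPKM. With median-of-ratios scaling they were 1.16%, 10.7%, 12.1%, 8.74% and 6.39%, and with no replicate block 0.0%, 9.77%, 16.9%, 8.07% and 4.71%. With a pseudocount of 5 the share was 0.647% at 4 h and 18.6% between doses, and with no filter 6.88% between doses. With a pseudocount of 0.1 the 6 h contrast called 0 higher and the line response 19 higher; with 5, 3 were lower at 4 h and 12 lower and 0 higher between doses. With no filter on low values, 0 were higher at 6 h and at 200 nM, 12 lower and 0 higher between doses, 15 higher between lines and 17 higher in the line response. With a mean of at least 5 FPKM, which left 24 members tested, 2 were lower and 0 higher at 6 h, 8 lower at 12 h, 12 lower and 0 higher at 200 nM, 9 lower and 0 higher between doses, 9 lower from 2 to 12 h, 2 and 3 between lines, and 0 and 2 in the line response. Median-of-ratios scaling gave 3 lower at 6 h, 21 and 9 at 12 h, 27 and 6 at 200 nM, 8 and 6 between doses, and 18 and 4 from 2 to 12 h. With no mean trend 2 were higher between doses, and taking the highest locus of an identifier changed no count. With no replicate block (lines unpaired), the counts were 0 and 0 at 6 h, 19 lower at 12 h, 32 and 0 at 200 nM, 7 and 0 between doses, and 15 and 0 from 2 to 12 h.

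Without the library labelled KYSE510 DMSO and both 200 nM libraries, chosen after seeing the data, 22 were lower at 4 h, 58 and 2 at 6 h, 75 and 5 at 12 h, 84 and 4 from 2 to 12 h, and 56 higher between lines. Leaving out 1 library at a time gave 0 to 7 lower and 0 to 24 higher at 2 h, 0 to 10 and 0 to 18 at 4 h, 0 to 21 and 0 to 14 at 6 h, 19 to 49 and 1 to 17 at 12 h, 50 to 69 and 0 to 12 at 200 nM, 3 to 41 and 0 to 4 between doses, 2 to 54 and 0 to 2 from 2 to 12 h, and 14 to 28 and 11 to 34 between lines. The highest counts of rises at 2, 4, 6 and 12 h and at 200 nM came without TE7 DMSO, where the library labelled KYSE510 DMSO is the lone control. The line response was not run with libraries left out. Of 46 calls of named members, 44 held with median-of-ratios scaling, 42 with no filter and 45 with either pseudocount, and 10 of 32 were lost with no replicate block; the cause of the losses was not tested. The change of ZNF224 at 2 h, which was not called, ranged from -0.49 to 0.087 with a library left out, and was 0.06 without the library labelled KYSE510 DMSO and 0.087 without TE7 at 2 h. Gaps of 250000 and 1000000 bases gave 12 and 9 clusters in place of 10.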

Other observations

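The summed FPKM of all members was 612 in the library labelled KYSE510 DMSO, 762, 593, 503 and 414 along the 50 nM series and 276 at 200 nM; in TE7 it was 697, 660, 539, 461, 415 and 286. In the ZNF175 to ZNF331 cluster it was 99.6, 55.7, 42.6, 34.6, 25.2 and 24.5 in KYSE510 and 82.5, 73.5, 57.7, 53.5, 39.6 and 28.8 in TE7. ZNF444, which encodes a SCAN-domain zinc finger protein, stood in KYSE510 at 0.0528 FPKM with DMSO, 9.67, 6.29, 5.86 and 1.65 at 50 nM and 9.15 at 200 nM; in TE7 it stood at 13.9, 10.6, 7.30, 5.55 and 3.46, and 9.75. In both lines the 200 nM library of ZNF444 thus lay above all but 1 of that line's 50 nM libraries. ZNF888 stood at 2.91, 0.0, 3.57, 5.11, 2.23 and 0.0877 FPKM in TE7, so that the 2 h library alone among those at 50 nM was listed at 0.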
